A study of Mus musculus with 4 samples.

Results

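Hoxa9, Hoxa10, Hoxa11, Hoxa13, Hoxd9, Hoxd10, Hoxd11, Hoxd12, Hoxd13 and Hoxc13 are the distal limb Hox genes examined here, 10 of the 32285 genes listed in each of the 4 count matrices. They were chosen by name, and all 10 were found. The study sequenced single cells of the mouse digit at P2, the level of the middle phalanx, where an amputation heals by fibrosis. All 4 libraries came from wild-type FVB/NJ mice that were 8 weeks old, with male and female animals pooled according to the labels. One group held unamputated digits, and the other groups were taken at 12, 17 and 28 days post amputation (dpa). Each group held 1 library of hand-dissected tissue from which live, propidium iodide-negative cells had been sorted after trypsin and collagenase I digestion, so no comparison between groups has a replicate and no test was made. Intervals given below cover counting error only, since cells of 1 library are not replicates and counted molecules share their amplification.

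Hox genes encode homeodomain transcription factors and lie in chromosomal clusters, in which the order of the genes along the chromosome follows the order of their domains along the body. In the limb bud the 5′ genes of the HoxA and HoxD clusters are switched on in nested domains, and the genes with the highest numbers mark and pattern the most distal part, the future digits. Loss of Hoxa13 and Hoxd13 function is known to disturb digit formation, and Hoxc13 is known for its role in hair and nail. Adult connective tissue cells are known to keep a Hox code of the position they came from.

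The 4 libraries held between 92313847 and 197140774 UMIs (unique molecular identifiers, the counted molecules) over 8813 to 16045 barcodes, and 34947 cells were kept in 31 clusters. Fibroblast-like cells had a median of 19177 UMIs in the unamputated library, 11617 at 12 dpa, 12301 at 17 dpa and 9104 at 28 dpa. No library held RNA of both sexes above 1 CPM, although the labels give pooled animals. Xist, the RNA of the inactive X chromosome, stood at 458.1 CPM (UMIs of the gene per 1000000 UMIs) there and at no more than 0.154 CPM in the other 3 libraries, while 4 Y-linked genes together stood at 0.228 CPM there and at 243.6 to 350.2 CPM in the others. Each comparison with the 12 dpa library is therefore also a comparison between cells with Xist RNA and cells with Y-linked RNA, and these cannot be told apart. Any pair of libraries shared 19 to 87 barcodes.

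In the GENCODE M21 annotation (GRCm38, the assembly also called mm10) the HoxD members lie on the plus strand of chromosome 2 in the order Hoxd13 (74668310 to 74671599), Hoxd12 (74675013 to 74677705), Hoxd11 (74679557 to 74687016), Hoxd10 (74691924 to 74695105) and Hoxd9 (74697727 to 74700208). The HoxA members lie on the minus strand of chromosome 6, with Hoxa9 at 52223100 to 52231089, Hoxa10 at 52231197 to 52240854, Hoxa11 at 52242106 to 52245810 and Hoxa13 at 52257694 to 52260880. Hoxc13 lies on the plus strand of chromosome 15 at 102921103 to 102928814. Only 107 bases separate the annotated ends of Hoxa9 and Hoxa10, and Hoxa11os is transcribed across Hoxa11 from the opposite strand, so reads at these borders depend on the annotation used for counting, which is not given in the sources used here.

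The promoters of 4 members are shown because they stand for the 4 patterns described below: Hoxd13 for the connective tissue pattern, Hoxa13 for the pattern shared by connective tissue and mural cells, Hoxd9 for the endothelial pattern and Hoxa9 for the pattern with its highest level in keratinocytes. Each runs from 250 bases before to 50 bases after the RefSeq start (GRCm38.p6), 5′ to 3′ on the gene's strand, with motif matches on either strand in capitals. The first motif was GGGCGG, called the GC box. The second was TATAAA, called the TATA box.
Hoxd13, chr2:74667975-74668274, plus strand: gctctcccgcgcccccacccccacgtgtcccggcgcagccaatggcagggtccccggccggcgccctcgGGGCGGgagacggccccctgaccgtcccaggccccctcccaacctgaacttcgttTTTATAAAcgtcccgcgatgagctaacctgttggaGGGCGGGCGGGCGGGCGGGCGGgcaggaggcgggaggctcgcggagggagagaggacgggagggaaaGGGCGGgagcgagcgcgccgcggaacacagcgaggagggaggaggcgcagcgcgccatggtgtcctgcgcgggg
Hoxa13, chr6:52260831-52261130, minus strand: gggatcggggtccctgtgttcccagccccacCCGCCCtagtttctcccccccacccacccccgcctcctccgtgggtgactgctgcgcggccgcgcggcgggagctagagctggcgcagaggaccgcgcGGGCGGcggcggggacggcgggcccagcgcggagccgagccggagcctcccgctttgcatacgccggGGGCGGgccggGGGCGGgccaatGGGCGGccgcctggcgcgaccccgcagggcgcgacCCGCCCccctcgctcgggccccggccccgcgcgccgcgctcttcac
Hoxd9, chr2:74697513-74697812, plus strand: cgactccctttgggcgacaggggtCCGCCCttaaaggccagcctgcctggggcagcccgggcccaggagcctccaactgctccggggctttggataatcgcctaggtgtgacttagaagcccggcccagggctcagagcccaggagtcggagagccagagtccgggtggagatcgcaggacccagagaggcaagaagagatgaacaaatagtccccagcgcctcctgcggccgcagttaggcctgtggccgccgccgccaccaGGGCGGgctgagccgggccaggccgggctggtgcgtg
Hoxa9, chr6:52227321-52227620, minus strand: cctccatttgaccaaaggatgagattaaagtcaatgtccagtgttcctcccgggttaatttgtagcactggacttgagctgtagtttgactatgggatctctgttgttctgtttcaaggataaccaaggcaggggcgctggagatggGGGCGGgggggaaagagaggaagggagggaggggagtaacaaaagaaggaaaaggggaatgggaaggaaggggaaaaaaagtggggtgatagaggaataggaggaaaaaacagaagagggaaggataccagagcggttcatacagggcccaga

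The table of promoters held 9 of the 10 genes with 11 promoters, without Hoxc13. The Hoxa13 window was 81% G or C with 45 CpG dinucleotides and 6 GC boxes. The Hoxd13 window was 74.3% G or C with 37 CpG dinucleotides, 7 GC boxes and 2 overlapping TATA boxes, 1 on each strand. The Hoxd9 window was 68.3% G or C with 20 CpG dinucleotides, and the Hoxa9 window 49.7% with 4. Against the median of 52.7% G or C and 7 CpG dinucleotides over 32851 promoters of the same length, 8 of the 11 members' promoters lay above the median G and C content. The GC box was found in 6 of the 11 windows and in 35.7% of all promoters, and the TATA box in 2 of the 11 and in 13.6% of all. Of 2 motifs described for group 13 Hox proteins, CCAATAAA was found in none of the 11 windows (1.12% of all promoters) and CTCGTAAA in 1, a promoter of Hoxd11 (0.131% of all). A match is a description of these letters and not of a bound site.

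Cells were grouped by clustering without any Hox gene, and clusters were named from marker genes as fibroblast-like, tenocyte-like, osteoblast-like and so on. Most of the members' RNA lay in connective tissue. The 9605 fibroblast-like, tenocyte-like and osteoblast-like cells held 62.2% of all member UMIs (95% exact binomial interval 61.7 to 62.6%, counting error only) at a summed level of 192.8 CPM, 4 libraries together. By library they held 8359 of 15925 member UMIs without amputation, 5697 of 8145 at 12 dpa, 6975 of 9529 at 17 dpa and 5928 of 9759 at 28 dpa. They made up 17.25%, 33.1%, 32.5% and 30.45% of the kept cells, but a larger share of the UMIs of all genes. These were 40087116 of 141971531 without amputation, 35765909 of 74556396 at 12 dpa, 33775505 of 77997841 at 17 dpa and 30236456 of 78748397 at 28 dpa. Among the other named groups, mural-like cells, the pericytes and smooth muscle cells around vessels, had 132.0 CPM, keratinocyte-like cells 108.5 CPM and endothelial-like cells 81.8 CPM. An unnamed epithelial cluster of 1003 cells (cluster 5) stood at 213.0, 135.8, 262.2 and 219.1 CPM in time order, above connective tissue-like cells in each library except that of 12 dpa, mostly of Hoxc13 and Hoxa9. Immune-like cells pooled, which arise from blood precursors and should lack a limb Hox code, held 136 UMIs of the 10 genes and a summed level of 2.80 CPM, used here as the background. It was 2.235, 1.23, 3.18 and 4.185 CPM in time order, and single immune-like classes reached 25.7 CPM (neutrophil-like cells at 28 dpa, 7 UMIs), 16.8 CPM (T or NK-like cells at 17 dpa, 8 UMIs) and 14.5 CPM (B lineage-like cells at 17 dpa, 6 UMIs).

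**Figure D1:**
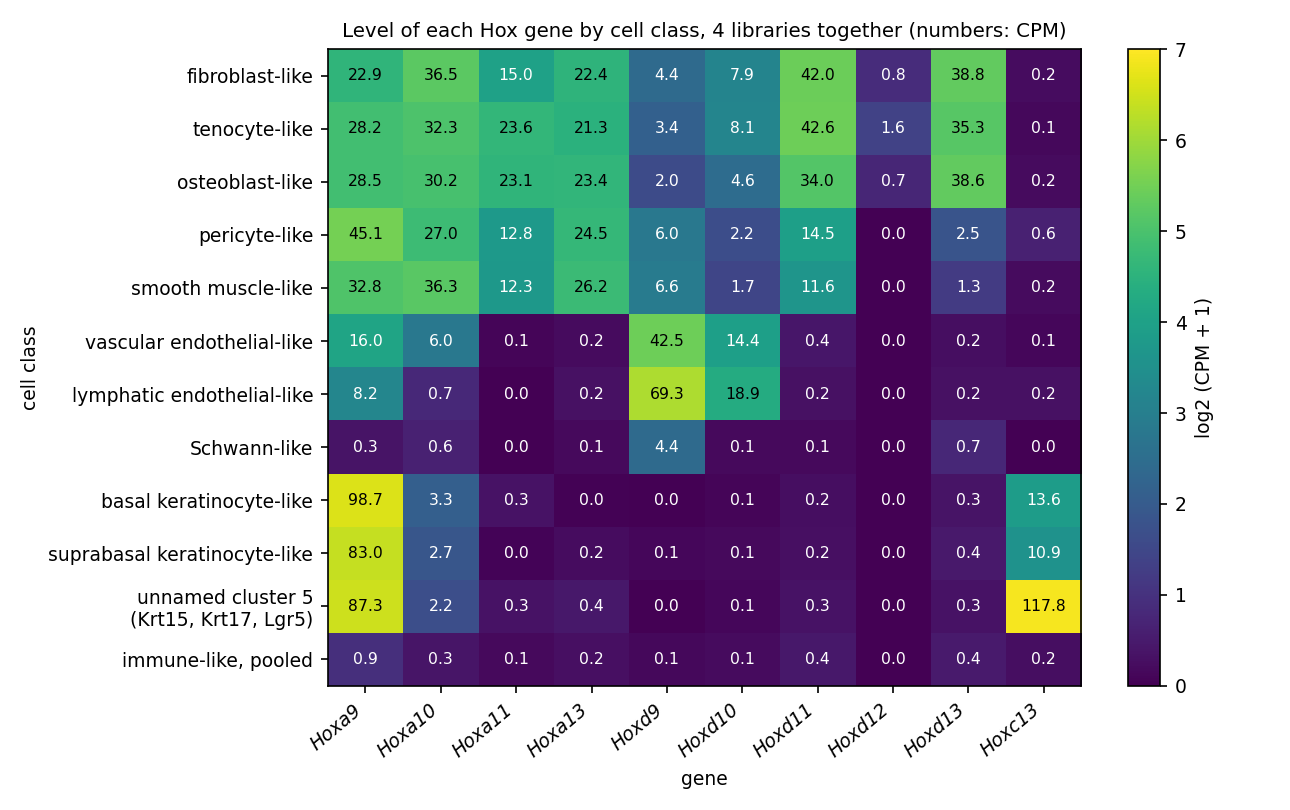
Level of each of the 10 Hox genes (columns) in 12 cell classes (rows), UMIs summed over the 4 libraries; the printed number is CPM and the color is log2 (CPM + 1). Hoxd13 stood between 35.3 and 38.8 CPM in the 3 connective tissue-like classes and at or below 2.55 CPM in every other class drawn, while Hoxd9 was highest in endothelial-like cells and Hoxc13 in cluster 5.

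Hoxd13, the most 5′ gene of the HoxD cluster, was found mainly in connective tissue-like cells. Its level over the connective tissue-like classes pooled was 40.7 CPM in the unamputated library and 24.8, 45.0 and 38.7 CPM at the 3 times after amputation in order. In mural-like cells of the same libraries it was 2.48, 1.68, 1.92 and 0.932 CPM, and in endothelial-like cells 1 or 2 UMIs were counted in each library. Every connective tissue-like value lay above every mural-like and endothelial-like value. The log2 ratio of mural-like to connective tissue-like cells, on the log2 (CPM + 1) scale used for all ratios here, was -3.58 (-3.92 to -3.24) without amputation and -3.27, -3.98 and -4.36 at 12, 17 and 28 dpa. Over the libraries together it was -3.71, and -2.32 when no doublets were removed. The corresponding endothelial-like ratio was -5.24 (-5.365 to -4.93), -4.38 (-4.65 to -3.79), -5.20 (-5.515 to -4.26) and -4.61 (-5.21 to -3.60).

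Among the connective tissue-like classes Hoxd13 stood at 38.8 CPM (37.3 to 40.3) in fibroblast-like, 38.6 CPM (35.3 to 42.1) in osteoblast-like and 35.3 CPM (33.8 to 36.8) in tenocyte-like cells. These sums weight the libraries unequally, and the order turned between libraries: tenocyte-like cells lay below fibroblast-like cells without amputation (37.6 against 45.3 CPM) and at 12 dpa (23.6 against 28.0 CPM), and above them at 17 dpa (51.8 against 43.05 CPM) and 28 dpa (56.4 against 34.6 CPM). Hoxd12, the next gene of the cluster, was sparse, with 62, 41, 35 and 24 UMIs in connective tissue-like cells of the 4 libraries in order of time, or 1.55, 1.15, 1.04 and 0.794 CPM. No Hoxd12 UMI was counted in mural-like, endothelial-like, keratinocyte-like or immune-like cells of any library. In mural-like cells together, 0 UMIs allows a level of up to 0.0811 CPM (3 counts of the total). Connective tissue-like cells held 97.0% of the Hoxd13 UMIs and 98.2% of the Hoxd12 UMIs of the 4 libraries.

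Hoxd11 stood at 41.3, 35.8, 43.3 and 46.3 CPM in connective tissue-like cells in time order, above Hoxd13 at 12 and 28 dpa, close to it without amputation and below it at 17 dpa. UMIs tagged at the 3′ end count each captured molecule irrespective of its length, so levels of different genes are compared on that scale. Its levels in mural-like cells were above those of Hoxd13, with 14.4, 15.3, 9.87 and 11.7 CPM. Every mural-like value lay below every connective tissue-like value. Connective tissue-like cells held 91.4% of its UMIs. Hoxd10 stood at 7.38, 7.07, 8.05 and 8.53 CPM in connective tissue-like cells and at 1.54 to 2.69 CPM in mural-like cells.

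Hoxa13, the group 13 gene of the HoxA cluster, did not share the mural drop of Hoxd13. It stood at 24.9, 16.9, 22.8 and 23.2 CPM in connective tissue-like cells and at 26.2, 19.0, 26.65 and 27.15 CPM in mural-like cells. The mural-like value was the higher one in each library, yet the intervals of the 4 log2 ratios (0.07, 0.16, 0.22 and 0.22) all included 0. For the unamputated library the interval was -0.09 to 0.23, and for 28 dpa it was -0.00416 to 0.44. In endothelial-like cells Hoxa13 had 0 to 3 UMIs a library. Hoxa10, a gene of the proximal and middle limb in the embryo, and Hoxa11, known for the forearm and lower leg, were likewise found in both compartments: Hoxa10 at 26.1 to 38.8 CPM in connective tissue-like and 26.9 to 34.6 CPM in mural-like cells, and Hoxa11 at 17.0 to 21.55 CPM and 8.57 to 15.7 CPM.

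Mural-like cells carried HoxA members with less HoxD than connective tissue-like cells. HoxD genes made up 47.4% of the member UMIs in connective tissue-like cells (45.2 to 50.6% across libraries) and 17.6% in mural-like cells (15.25 to 20.03%). In endothelial-like cells the share was 74.6% (73.1 to 81.7%), and in keratinocyte-like cells 0.633%. The ranges of the first 3 groups did not overlap.

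Hoxd9, the most 3′ HoxD member, had its highest levels in endothelial-like cells. Its level in endothelial-like cells, vascular and lymphatic pooled, was 47.3, 40.6, 42.4 and 51.7 CPM in time order, against 3.72, 3.16, 3.23 and 4.96 CPM in connective tissue-like cells. The log2 ratio was 3.36 (3.15 to 3.56), 3.32 (3.06 to 3.58), 3.36 (3.05 to 3.66) and 3.145 (2.85 to 3.44). Over the libraries together it was higher in lymphatic endothelial-like cells (69.3 CPM, 61.4 to 77.95) than in vascular endothelial-like cells (42.5 CPM). The order was the same in both libraries with enough lymphatic cells, at 72.3 against 44.15 CPM without amputation and 59.7 against 36.65 CPM at 12 dpa. Hoxd10 stood at 13.7 to 17.2 CPM in endothelial-like cells, above its connective tissue-like level in each library, and its lymphatic and vascular intervals overlapped. Of the HoxA members, endothelial-like cells held Hoxa9 at 12.2 to 16.7 CPM and Hoxa10 at 1.88 to 6.68 CPM. In Schwann-like cells, the glia of peripheral nerve, Hoxd9 was the only member above 1 CPM over the libraries together, at 4.37 CPM (2.97 to 6.21).

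Hoxa9, the most 3′ HoxA member, was found in connective tissue-like, mural-like and endothelial-like cells and was highest in epithelium. Keratinocyte-like cells had 94.6, 96.5, 78.5 and 93.2 CPM in time order, and connective tissue-like cells 28.6, 26.0, 26.9 and 20.2 CPM. The log2 ratio was 1.69 (1.59 to 1.79), 1.85 (1.71 to 1.99), 1.51 (1.37 to 1.66) and 2.15 (2.02 to 2.29). Mural-like cells lay between, at 34.7 to 41.7 CPM. Over the libraries together pericyte-like cells stood at 45.1 CPM and smooth muscle-like cells at 32.8 CPM. The order of the epithelial groups changed between libraries, with 103.2, 116.0, 81.0 and 93.3 CPM in basal keratinocyte-like cells, 83.8, 69.9, 74.5 and 93.2 CPM in suprabasal keratinocyte-like cells and 102.1, 62.4, 95.8 and 76.7 CPM in cluster 5.

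Hoxc13, which controls keratin genes of hair and nail, stood above the immune-like background in epithelium. Keratinocyte-like cells had 13.15, 10.5, 13.8 and 11.6 CPM in time order. Cluster 5, led by Krt15, Krt17, Lgr5 and Lhx2, genes known from the hair follicle, had 107.4, 71.5, 163.2 and 138.2 CPM in time order and held 64.7% of all Hoxc13 UMIs. This cluster was given no cell type name. Its highest marker score was that of hair matrix or nail keratinocytes, of which only 1 marker was detected where 3 were needed. Hair follicle keratinocytes also had more markers among its 10 leading genes. Connective tissue-like cells had 2, 3, 4 and 11 Hoxc13 UMIs, or 0.0499 to 0.364 CPM, in the range of the immune-like background of 0.206 CPM. Of the 15 measured hair and nail genes known downstream of Hoxc13, 12 reached 5 CPM in cluster 5 and 0 did in fibroblast-like cells. Krt35, a hard keratin, stood at 258.9 CPM in cluster 5.

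**Figure D2:**
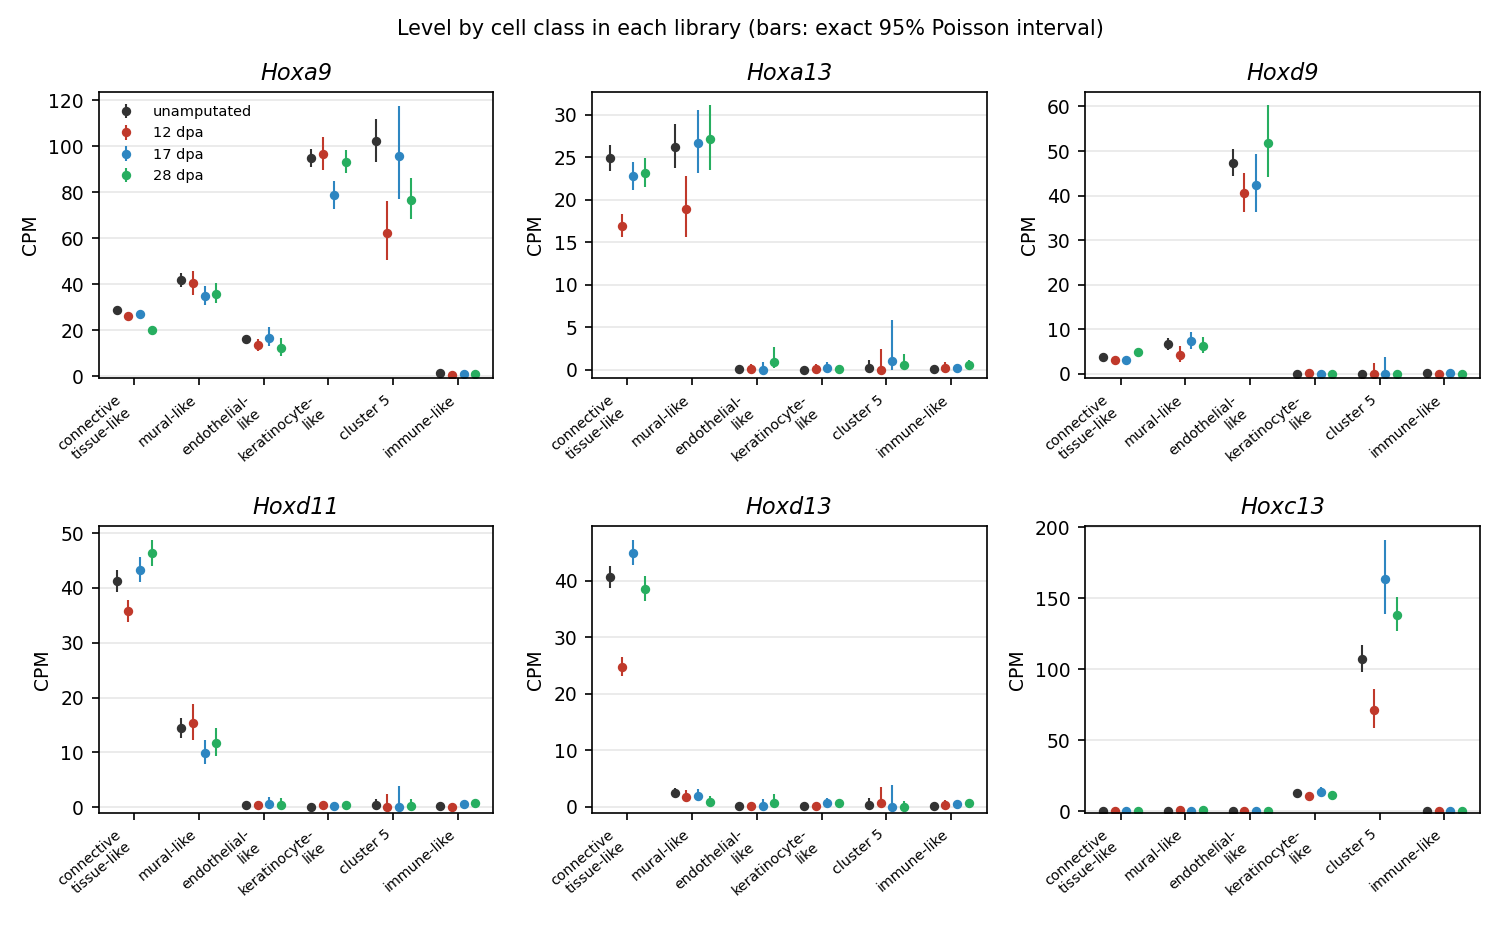
Level in CPM (vertical axis) of 6 members in 6 pooled cell groups (horizontal axis), with a point for each of the 4 libraries and bars for the exact 95% Poisson interval of the UMI count. Some differences from connective tissue-like cells are larger than the differences between libraries. These are mural-like and endothelial-like cells for Hoxd13, endothelial-like cells for Hoxd9, and keratinocyte-like cells for Hoxa9 and Hoxc13. Other pairs overlap, such as mural-like and connective tissue-like cells for Hoxd9. The 12 dpa points of Hoxd13 and Hoxa13 are the lowest in connective tissue-like cells.

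Shares of cells with a UMI were compared at a fixed depth, since the libraries differ in depth. After each cell was thinned to 2000 UMIs, at least 1 UMI of the 10 genes was found in 34.7%, 24.9%, 34.3% and 30.8% of the fibroblast-like cells of the 4 libraries in time order, with 12 to 45 cells left out as shallower. Hoxd13 was detected in 9.83%, 4.67%, 8.61% and 7.34% of these cells, and in 0.331 to 0.711% of pericyte-like cells. In immune-like cells the share with any of the 10 genes was at most 0.80% at the same depth. Without thinning, at the median depths given above, the share of fibroblast-like cells with any member was 89.2%, 74.7%, 79.7% and 73.8%, against 0.744 to 2.655% of immune-like cells, whose median depth was 4956 to 6428 UMIs.

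The other 29 Hox genes showed another pattern. Their summed level was 29.4 CPM in connective tissue-like cells, 61.4 CPM in mural-like, 205.5 CPM in keratinocyte-like and 362.5 CPM in endothelial-like cells. In fibroblast-like cells 2 of the 29 reached 5 CPM, Hoxa7 (11.9 CPM) and Hoxd8 (7.73 CPM). In vascular endothelial-like cells 14 of 29 did, with Hoxd8 (53.5 CPM) and Hoxa7 (50.2 CPM) among them. The members' summed level exceeded that of the 29 others in connective tissue-like and mural-like cells of each library and lay below it in endothelial-like and keratinocyte-like cells of each.

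**Figure D3:**
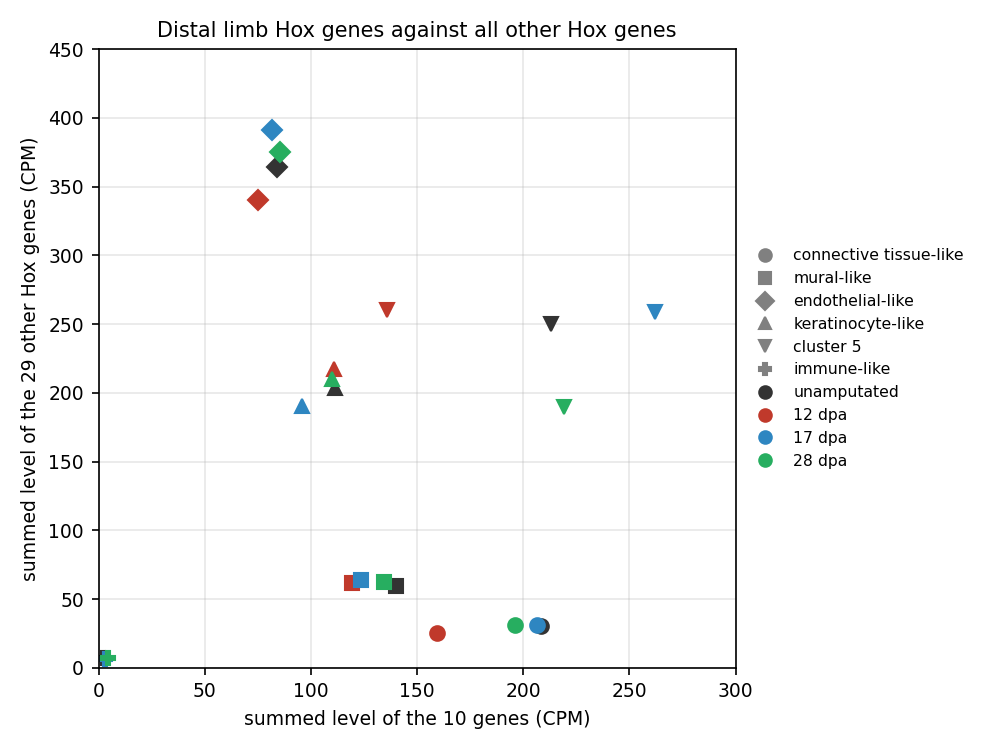
Summed level of the 10 members (horizontal axis, CPM) against the summed level of the other 29 Hox genes (vertical axis, CPM), a symbol for each cell group and a color for each library. Connective tissue-like cells lie at 159.3 to 208.5 CPM of the members with 25.4 to 31.45 CPM of the others, and endothelial-like cells at 75.1 to 85.6 CPM with 340.1 to 391.5 CPM.

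The comparison with the unamputated library asks how the members' levels stand during healing in the cells that carry them. In bulk sums of a class, fewer cells with a gene and less RNA per cell cannot be told apart. In fibroblast-like cells the summed level of the 10 genes was 210.7 CPM without amputation (795 cells), 163.8 CPM at 12 dpa (657 cells), 199.3 CPM at 17 dpa (1463 cells) and 179.6 CPM at 28 dpa (2170 cells). The log2 ratio to the unamputated library was -0.36 (-0.45 to -0.27), -0.08 (-0.15 to -0.01) and -0.23 (-0.30 to -0.16) at the 3 times in order. The intervals of unamputated and 12 dpa levels did not overlap.

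Hoxd13, Hoxa10 and Hoxa13 had the largest differences in CPM among the 10 genes at 12 dpa. Hoxd13 stood at 45.3, 28.0, 43.05 and 34.6 CPM in fibroblast-like cells in time order, and its 3 log2 ratios were -0.67 (-0.89 to -0.47), -0.07 (-0.22 to 0.07) and -0.38 (-0.52 to -0.23). Hoxa13 stood at 24.7, 13.5, 23.0 and 23.4 CPM, with -0.82 (-1.12 to -0.54) at 12 dpa and intervals that included 0 at both later times. Hoxa10 stood at 42.2, 27.4, 38.3 and 34.4 CPM, with -0.60 (-0.82 to -0.39) at 12 dpa and -0.29 (-0.44 to -0.14) at 28 dpa. For each of these genes the 12 dpa library was the lowest of the 4.

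For the neighbors of these genes the interval of the 12 dpa ratio included 0. Hoxd11 stood at 42.3, 43.95, 40.6 and 42.1 CPM, with all 3 intervals including 0. At 12 dpa its log2 ratio was 0.05 (-0.13 to 0.23). Hoxd10 (7.60 to 8.67 CPM), Hoxa11 (12.35 to 17.2 CPM) and Hoxd9 (2.73 to 5.51 CPM) likewise had intervals that included 0 at each time, before the centring given below. Hoxa9 differed in the class at 28 dpa, with 27.5, 25.9, 24.7 and 16.85 CPM and a log2 ratio of -0.675 (-0.87 to -0.48) at 28 dpa. Hoxd12, with 22, 10, 11 and 12 UMIs, had -0.59 (-1.04 to -0.06) at 17 dpa and -0.64 (-1.06 to -0.14) at 28 dpa. Hoxc13 had 0, 0, 4 and 7 UMIs in fibroblast-like cells. Beside it Krt35 stood at 0.189 CPM without amputation and 1.07 CPM at 28 dpa in the same cells, and its part in the Hoxc13 counts was not tested.

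Against the background of all genes, 3 of the 7 members with at least 5 CPM in either library lay past 1.5-fold lower at 12 dpa (Hoxa10, Hoxa13 and Hoxd13), where 6.22% of 10807 genes did, and 0 of 7 lay past 1.5-fold higher, where 5.39% did. At 17 dpa 0 of 7 members lay past 1.5-fold in either direction, against 7.2% of genes lower and 3.45% higher. At 28 dpa 1 of 8 lay past 1.5-fold lower (Hoxa9) and 0 higher, against 21.9% of genes lower and 11.7% higher. The count at 28 dpa is no more than the background. Hoxd9 passed the filter of 5 CPM through the 28 dpa library alone. The median log2 ratio over the members that passed was -0.24, -0.07 and -0.08 at the 3 times, beside 0.00, -0.04 and -0.14 over all genes tested.

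The median over genes of at least 20 CPM lay below 0 by more than 0.1 in many comparisons, among them -0.12 in fibroblast-like cells at 28 dpa and -0.20 and -0.10 in tenocyte-like cells at 12 and 28 dpa. Relative to that median the summed level of the 10 genes in fibroblast-like cells was -0.34, -0.035 and -0.11 at the 3 times, and the interval at 17 dpa then held 0. Hoxa13 was then -0.80 at 12 dpa and 0.04 at 28 dpa, and Hoxd13 -0.65 and -0.26. Hoxa11 was 0.26 at 17 dpa and Hoxd9 0.40 at 28 dpa. Both of these intervals had included 0 and left it out once shifted by the median. After this centring 2 members (Hoxa13 and Hoxd13) lay past 1.5-fold lower at 12 dpa, where 5.90% of all genes did. Hoxa10, at -0.583, no longer did. At 28 dpa 0 members lay past 1.5-fold lower, where 17.2% of all genes did. The share of higher genes among all genes past the fold at 28 dpa was 47.7% in place of 34.8%.

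Tenocyte-like cells differed in the opposite direction at the later times. Their summed level of the 10 genes was 211.4 CPM without amputation (774 cells), 157.6 CPM at 12 dpa (1490 cells), 236.3 CPM at 17 dpa (748 cells) and 270.3 CPM at 28 dpa (551 cells). The log2 ratio was -0.42 (-0.48 to -0.36), 0.16 (0.09 to 0.23) and 0.35 (0.26 to 0.44), or -0.22, 0.20 and 0.46 relative to the median gene. The class held clusters 21 and 6 in shares that differed between libraries. In cluster 21 the log2 ratio was -0.11 (-0.19 to -0.04) at 12 dpa, which turned to 0.07 relative to the median gene, and -0.007 (-0.12 to 0.11) at 17 dpa, and in cluster 6 it was -0.38 (-0.60 to -0.17) and -0.013 (-0.11 to 0.09), so the higher class level at 17 dpa was not seen within either. Hoxd13 stood at 37.6, 23.6, 51.8 and 56.4 CPM, with log2 ratios of -0.65 (-0.80 to -0.50), 0.45 (0.29 to 0.61) and 0.57 (0.37 to 0.77). At 17 dpa its ratio was 0.10 (-0.17 to 0.365) in cluster 21 and 0.32 (0.11 to 0.54) in cluster 6. Hoxd11 stood at 43.5, 33.2, 53.0 and 68.4 CPM, and Hoxd10 at 7.755, 6.595, 9.93 and 14.3 CPM. The 28 dpa library was the highest for these 3 HoxD genes and the 12 dpa library the lowest.

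Of the HoxA members of tenocyte-like cells at 28 dpa, Hoxa10 had a log2 ratio of 0.28 (0.07 to 0.49), while the intervals of Hoxa9, Hoxa11 and Hoxa13 (-0.08, -0.37 to 0.21) included 0. The HoxD share of member UMIs was 44.65%, 43.1%, 50.7% and 53.7% in time order in these cells, against 48.2%, 51.6%, 48.05% and 50.3% in fibroblast-like cells. At 12 dpa 1 of 7 members lay past 1.5-fold lower (Hoxd13), against 20.1% of genes, and 0 higher, against 6.61%. At 17 dpa 0 of 7 lay past either limit, against 4.34% higher and 4.41% lower. At 28 dpa 2 of 7 lay past 1.5-fold higher (Hoxd10 and Hoxd11), against 9.44% of genes, and 0 lower, against 14.5%. Past 2-fold lay 0 members in either class at any time. The background at 2-fold in fibroblast-like cells was 1.69%, 0.828% and 3.4% of genes higher and 2.06%, 2.44% and 8.7% lower in time order, and in tenocyte-like cells 0.676%, 1.45% and 3.35% higher and 4.19%, 0.923% and 4.37% lower. Centred on the median gene, 0 members lay lower at 12 dpa, where 9.66% of all genes did, and 3 lay higher at 28 dpa, where 12.6% did, and the share of higher genes among all genes past the fold was 59.5% in place of 24.8% at 12 dpa and 54.2% in place of 39.5% at 28 dpa.

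**Figure D4:**
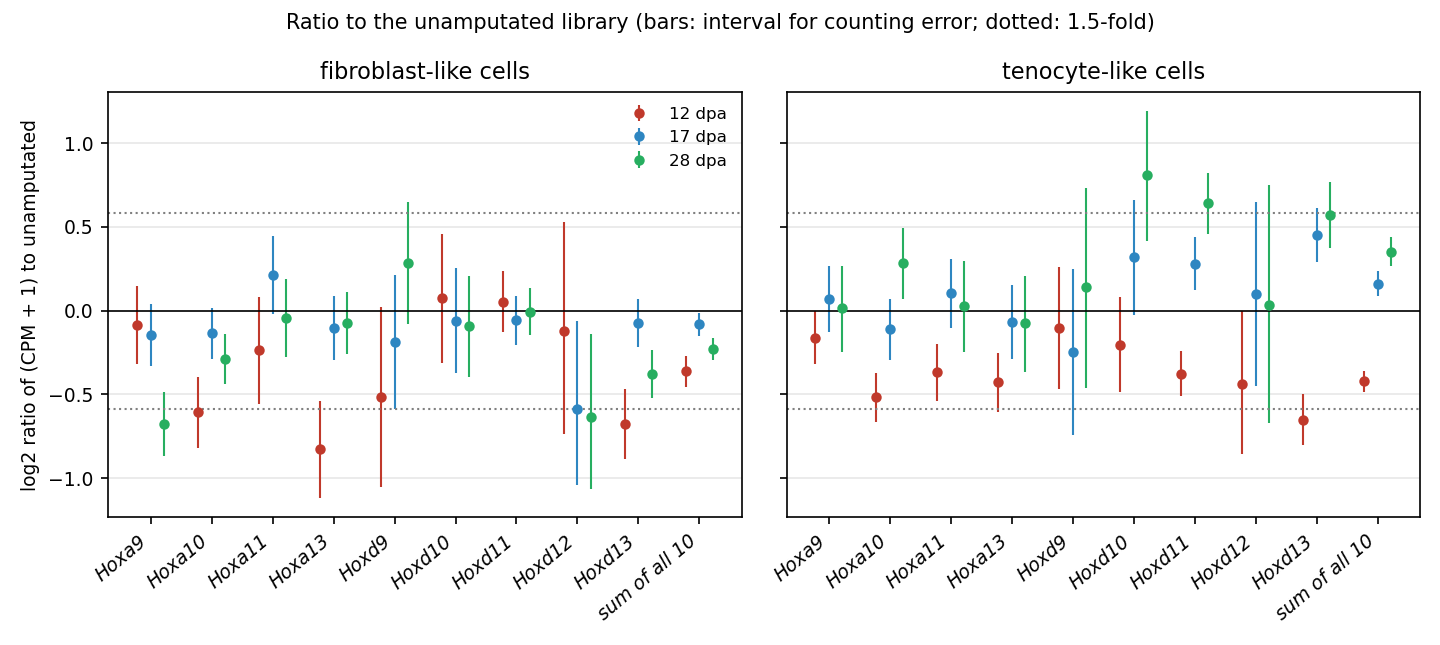
Log2 ratio of (CPM + 1) to the unamputated library (vertical axis) for 9 members and the sum of all 10 (horizontal axis) in fibroblast-like (left) and tenocyte-like cells (right), a color for each time point; bars are the intervals for counting error and dotted lines mark 1.5-fold. The 12 dpa intervals of Hoxd13, Hoxa13 and Hoxa10 lie wholly below 0 in both classes. The 12 dpa points of Hoxa9, Hoxa11, Hoxd9 and Hoxd12 also lie below 0 in both, with intervals that include 0 in fibroblast-like cells. The 28 dpa intervals of Hoxa10, Hoxd10, Hoxd11 and Hoxd13 lie wholly above 0 in tenocyte-like cells.

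The makeup of both classes differed between the libraries. Fibroblast-like cells came from clusters 8 (led by Lsamp, C4b and Pi16), 9 (Prss35 and Crabp1) and 16 (Ccn3, Prelp and Mfap5). Cluster 8 held 55.7% of them without amputation, 14.2% at 12 dpa, 72.4% at 17 dpa and 44.5% at 28 dpa, while cluster 9 held 65.9% at 12 dpa and cluster 16 held 54.7% at 28 dpa. Tenocyte-like cells came from cluster 21 (Fmod, Scx and Tnmd) and cluster 6 (Chad, Comp, Omd and Alpl), and cluster 6 held 41.0%, 4.23%, 64.6% and 39.4% of them in time order. Cluster 6 took the tenocyte name by the marker rule alone, with 1 tenocyte marker (Comp) and 1 osteoblast marker (Alpl) among its 10 leading genes, so its place in the class is uncertain. The clusters also differed in their level of the 10 genes. Without amputation this was 309.9 CPM in cluster 6, 247.5 CPM in cluster 8, 195.7 CPM in cluster 9, 167.9 CPM in cluster 21 and 140.3 CPM in cluster 16. Cluster 6 was the highest in each library, while cluster 21 (254.9 CPM) lay above cluster 8 (190.9 CPM) at 28 dpa. Hoxd13 and Hoxa13 were also highest in cluster 6 in each library, among the clusters with at least 50 cells there.

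Within clusters Hoxd13 was lower at 12 dpa than without amputation in all 5. It stood at 25.95 against 51.1 CPM in cluster 8, 31.15 against 48.2 CPM in cluster 9 and 23.0 against 28.3 CPM in cluster 21, with log2 ratios of -0.95 (-1.55 to -0.40), -0.61 (-0.90 to -0.33) and -0.29 (-0.47 to -0.10). In cluster 16 (20.4 against 26.96 CPM) and cluster 6 (42.8 against 58.8 CPM) the intervals included 0. Relative to the median gene the cluster 21 ratio was -0.10, with an interval that held 0. Hoxa13 was not lower at 12 dpa in every cluster: it stood at 14.97 against 34.3 CPM in cluster 8, 8.675 against 15.01 CPM in cluster 16 and 29.4 against 40.3 CPM in cluster 6, but at 15.03 against 14.6 CPM in cluster 9 and 17.6 against 17.5 CPM in cluster 21. The intervals of clusters 16 and 6 included 0. The 12 dpa value of cluster 8 rests on 93 cells and 15 Hoxa13 UMIs. Hoxa10 was lower at 12 dpa in all 5 clusters. Its intervals included 0 in clusters 9 (-0.20, -0.52 to 0.125), 16 (-0.23, -0.73 to 0.27) and 21 (-0.11, -0.29 to 0.075). In cluster 21 its ratio turned to 0.08 relative to the median gene. The intervals left out 0 in cluster 8 (-0.99, -1.595 to -0.44) and cluster 6 (-1.16, -1.84 to -0.54). These rest on 26 and 21 Hoxa10 UMIs at 12 dpa. Hoxa9 moved in opposite directions between clusters. In cluster 9 it was 32.8 CPM at 12 dpa and 47.45 CPM at 17 dpa against 19.9 CPM without amputation (0.69, 0.335 to 1.06, and 1.21, 0.60 to 1.79). In cluster 8 it was 13.97 and 27.2 CPM against 36.3 CPM (-1.32, -2.13 to -0.59, and -0.405, -0.63 to -0.18).

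The 28 dpa ratios also differed between clusters of 1 class. The summed level of the 10 genes stood at a log2 ratio of -0.37 in cluster 8 and 0.305 in cluster 16 of the fibroblast-like cells. In cluster 16 Hoxa13 was 22.8 CPM at 28 dpa against 15.01 CPM without amputation (0.57, 0.16 to 1.00), and in cluster 8 it was 24.9 against 34.3 CPM (-0.45, -0.71 to -0.18). In cluster 21 the summed level was 254.9 against 167.9 CPM (0.60, 0.49 to 0.71), with Hoxd13 at 54.2 against 28.3 CPM (0.91, 0.67 to 1.16) and Hoxd11 at 70.8 against 38.8 CPM (0.85, 0.64 to 1.07). In cluster 6 the summed level was 312.5 against 309.9 CPM, and the intervals of Hoxd13 (0.08, -0.27 to 0.425) and Hoxd11 (0.18, -0.175 to 0.53) included 0. Hoxd10 was higher at 28 dpa in both, at 13.15 against 6.995 CPM in cluster 21 (0.82, 0.34 to 1.29) and 17.6 against 9.48 CPM in cluster 6 (0.83, 0.13 to 1.496, from 24 and 55 UMIs).

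**Figure D5:**
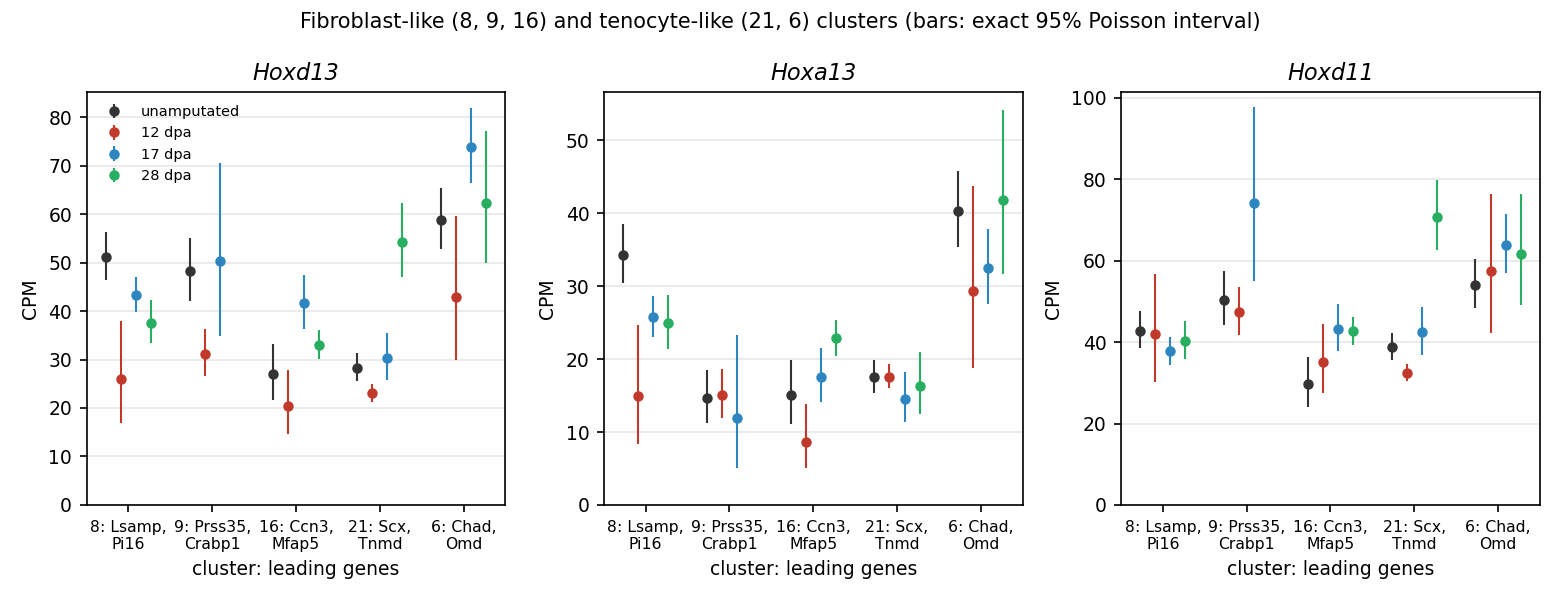
Level in CPM (vertical axis) of Hoxd13, Hoxa13 and Hoxd11 in 5 clusters of fibroblast-like and tenocyte-like cells (horizontal axis), a point for each library with at least 50 cells in the cluster and bars for the exact 95% Poisson interval. Hoxd13 at 12 dpa lies below its unamputated value in each cluster, and the 28 dpa points of Hoxd13 and Hoxd11 stand above the other libraries in cluster 21.

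Pooled over all connective tissue-like cells the 10 genes summed to 208.5, 159.3, 206.5 and 196.1 CPM in time order. The log2 ratio was -0.39 (-0.43 to -0.34), -0.01 (-0.06 to 0.03) and -0.09 (-0.14 to -0.04), or -0.19, 0.03 and 0.015 relative to the median gene, so the direction at 17 and 28 dpa turned with the centring. Osteoblast-like cells, of which the 12 dpa library held 9, had 191.4, 174.9 and 192.9 CPM in the other 3 libraries. Hoxd13 in them was 37.7, 38.8 and 38.8 CPM, with overlapping intervals. Hoxd11 was higher in them at 28 dpa (39.9 against 30.3 CPM, 0.39, 0.03 to 0.74, and 0.67 relative to a median gene of -0.28). Hoxa10 at 17 dpa had -0.41 (-0.74 to -0.09), or -0.28 relative to the median, with an interval that then held 0. The summed ratio at 28 dpa was 0.01, or 0.30 relative to the median.

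In most comparisons of the other classes the median gene lay below its unamputated level as well. In basal keratinocyte-like cells, for example, it lay at -0.13, -0.16 and -0.23 in time order. It lay above 0 in neutrophil-like cells at 28 dpa (0.094) and, at 17 dpa, in macrophage-like cells (0.007) and the unnamed cluster 26 (0.015). Each log2 ratio here is therefore given with its value relative to that median. Mural-like cells had 140.0 CPM of the 10 genes without amputation and 119.1, 123.7 and 134.4 CPM afterwards, with log2 ratios of -0.23, -0.18 and -0.06, or -0.08, -0.12 and 0.09 relative to the median, so the direction at 28 dpa turned. At 12 dpa pericyte-like cells had Hoxa13 at 17.1 against 26.8 CPM (-0.61, -0.99 to -0.25, and -0.43 relative to the median) and Hoxa11 at 8.13 against 15.3 CPM (-0.835, -1.35 to -0.34, and -0.655). Smooth muscle-like cells at 17 dpa had Hoxd11 at 8.17 against 13.9 CPM (-0.70, -1.19 to -0.21, and -0.65). Vascular endothelial-like cells at 28 dpa had Hoxa10 at 1.99 against 6.31 CPM (-1.29, -2.11 to -0.41, and -1.18). In basal keratinocyte-like cells Hoxa9 had log2 ratios of 0.17 (0.02 to 0.315), -0.35 (-0.51 to -0.185) and -0.145 (-0.27 to -0.02) in time order, or 0.30, -0.18 and 0.08 relative to the median, so the direction at 28 dpa turned. In cluster 5 Hoxc13 had log2 ratios of -0.58 (-0.89 to -0.28), 0.60 (0.33 to 0.86) and 0.36 (0.18 to 0.54) in time order, or -0.44, 0.69 and 0.53 relative to the median. Hoxa9 there had -0.70 (-1.03 to -0.39) at 12 dpa and -0.41 (-0.62 to -0.20) at 28 dpa, or -0.56 and -0.24.

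Other intervals left out 0 before this centring and held it once shifted by the median. These were Hoxa9 in pericyte-like cells at 28 dpa (-0.44, and -0.28 relative to the median), Hoxd9 and Hoxa9 in vascular endothelial-like cells at 12 dpa (-0.26 and -0.32, and -0.13 and -0.18), Hoxc13 in basal keratinocyte-like cells at 28 dpa (-0.45, and -0.22), Hoxa9 in suprabasal keratinocyte-like cells at 12 dpa (-0.26, and -0.06) and Hoxa10 in the unnamed cluster 27 at 28 dpa (-0.78, and -0.68). In the named classes and unnamed clusters outside connective tissue, some further intervals left out 0 before centring. All of these rest on members under 5 CPM in both libraries or on a few UMIs in immune-like classes. Other intervals held 0 before and left it out once shifted. Among them were Hoxa9 (0.15, and 0.40 relative to the median) and Hoxc13 (0.24, and 0.49) in suprabasal keratinocyte-like cells at 28 dpa. At the same time Hoxa11 in smooth muscle-like cells (0.38, and 0.51) and Hoxd9 in vascular endothelial-like cells (0.15, and 0.26) did so. Hoxa9 in lymphatic endothelial-like cells did so at 12 dpa (0.91, and 1.02). Over whole libraries Hoxc13 stood at 5.76, 2.64, 3.49 and 8.98 CPM, beside 302, 122, 101 and 478 kept cells in cluster 5.

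Hox proteins bind DNA with cofactors of the TALE homeobox class, such as the Meis and Pknox families. Of 9 such genes 8 reached 5 CPM in fibroblast-like cells. At 12 dpa 2 of these 8 lay past 1.5-fold higher and 0 lower, beside 5.39% and 6.22% of all genes. At 17 dpa 0 lay higher and 1 lower, beside 3.45% and 7.2%, and at 28 dpa 0 lay higher and 4 lower, beside 11.7% and 21.9%. Pknox2 stood at 32.5 CPM without amputation and 8.67 CPM at 28 dpa (log2 ratio -1.79, -2.01 to -1.57). Of 12 genes known as downstream of group 13 Hox proteins 8 reached 5 CPM. Past 1.5-fold higher and lower lay 2 and 1 of them at 12 dpa, 1 and 4 at 17 dpa and 2 and 4 at 28 dpa, beside the same shares of all genes. Their median log2 ratio was 0.14, -0.61 and -0.72 in time order. Epha3, an ephrin receptor, stood at 226.9 CPM without amputation and 44.4 CPM at 28 dpa (-2.33, -2.43 to -2.23), and Enpp2, which makes lysophosphatidic acid, at 43.8 and 110.0 CPM (1.31, 1.19 to 1.43).

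Limb patterning genes beside the Hox genes were also present. Of 29 genes 14 reached 5 CPM in fibroblast-like cells, led by Prrx1, a mesenchymal homeobox gene of the limb, at 914.9 CPM. At 28 dpa 1 of 15 tested lay past 1.5-fold higher and 5 lower, beside 11.7% and 21.9% of all genes. Of 15 RNAs and neighbor genes of the HoxA and HoxD loci 8 reached 5 CPM, and 0 lay past 1.5-fold higher and 2 lower at 28 dpa, a share close to that of all genes. Over 74 profiles of cell groups by library, the genes of at least 20 CPM whose log2 (CPM + 1) levels were most like those of Hoxd13 were Tbx4 (Pearson's r 0.937), a hindlimb T-box gene, 2700069I18Rik (0.925) and Ptgfr (0.924). Those most like Hoxa13 were Bmp5 (0.964), Hoxa11os (0.946) and Prrx1 (0.944), and those most like Hoxc13 were Vwa2 (0.960), its neighbor Hoxc12 (0.958) and Spint1 (0.949). The profiles share 4 libraries and their depth, and the coefficients are descriptions.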

How the data were processed

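The authors deposited 4 matrices of UMI counts per gene and cell barcode, made with Cell Ranger 7.1.0 on mm10 per the file headers and the submitters' processing notes. The annotation, the intron setting and the cell calling are not given in the sources used here. The cells used had 500 genes or more, 1000 UMIs or more and no more than 10% of UMIs from mitochondrial genes, and 7.05 to 12.8% of them per library were removed as likely doublets (highest Scrublet scores, at a rate of 0.8% per 1000 barcodes). Cells were clustered with scanpy 1.11.5 (2000 variable genes, 30 principal components, Leiden resolution 1) without Hox genes, mitochondrial genes, Xist, Tsix and 4 Y-linked genes. Clusters were named "-like" after the class of the highest marker score where at least 3 of its fixed markers were detected and no other class had more markers among the 10 leading genes.

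UMIs were summed per class and library and given as CPM with exact Poisson intervals. Ratios are log2 of (CPM + 1), with intervals from the exact binomial interval of both UMI counts. Classes of under 50 cells in a library were left out. The share of genes past 1.5-fold among genes of at least 5 CPM in either library is the background. With 1 library per group no test was made. The steps were tested on simulated data. The GENCODE M21 annotation held 32158 of the 32285 gene IDs.

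The members and gene lists were chosen with earlier results of these data known. All 10 members are named. From each list up to 4 genes of the highest CPM in fibroblast-like cells could be named, and for Hoxa13, Hoxd13 and Hoxc13 the genes of the most similar profile. Hoxc12 and the leading genes of clusters fall under the likeness rule or describe the clusters, and Krt35 in cluster 5 was the list's highest gene there.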

Additional observations from a re-analysis of the deposited data

How the results depend on the processing

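No paired analysis was possible because each group held 1 library, and for the same reason no replicate could be left out. The summed log2 ratio of the 10 genes in fibroblast-like cells stayed below 0 at 12 dpa under each alternative run. It moved from -0.36 to -0.65 with a looser cell filter and -0.56 with a stricter one. With no doublets removed it was -0.48, and at Leiden resolution 2 it was -0.59. In cluster 8 alone it was -0.74 (-0.99 to -0.50). In clusters 9 and 16 alone it was -0.10 (-0.23 to 0.03) and -0.22 (-0.45 to 0.009), with intervals that included 0. At 17 dpa it moved from -0.08 to -0.18, -0.15 and -0.20 with the looser filter, the stricter filter and resolution 2, and to -0.28 in cluster 8, and it reversed to 0.007 with tenocyte-like cells added, 0.45 in cluster 9 and 0.35 in cluster 16. At 28 dpa it moved from -0.23 to -0.30 (looser filter), -0.15 (no doublets removed), -0.31 (resolution 2), -0.10 (tenocyte-like cells added), -0.37 (cluster 8) and -0.093 (scaled by the median ratio), and it reversed to 0.305 in cluster 16. With all connective tissue-like classes pooled it was -0.088 under the main filter, -0.079 under the looser and -0.095 under the stricter one. The cause was not tested. Of single genes, Hoxa13 at 12 dpa and Hoxd12 at 17 dpa reversed in cluster 9 (0.039 and 0.98), and Hoxa10, Hoxd12 and Hoxd13 at 28 dpa reversed in cluster 16 (0.17, 0.043 and 0.28). The clusters alone and the pooled connective tissue were chosen after seeing the data.

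The share of member UMIs in connective tissue-like classes moved from 62.2% to 54.7% (looser filter), 71.7% (stricter filter), 55.4% (no doublets removed), 57.1% (resolution 2) and 64.99% (members under 5 CPM left out). At 2-fold in place of 1.5-fold, the genes past the fold numbered 406 in place of 1254 at 12 dpa, 348 in place of 1133 at 17 dpa and 1293 in place of 3592 at 28 dpa, and the members 0 in place of 3 at 12 dpa and 0 in place of 1 at 28 dpa. The log2 ratio of Hoxd13 in mural-like to connective tissue-like cells, 4 libraries together, was -3.71 and became -2.32 with no doublets removed. Over all alternatives for the values of single genes (log2 ratios over time, log2 ratios between classes and shares of cells with a UMI), 408 values stayed within the interval of the main value, 187 moved beyond it and 5 reversed (counted only where the main interval left out 0). Sparse members such as Hoxd12 are limited by depth.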
